A study of Mus musculus with 18 samples.

Results

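The respiratory chain subunits are the proteins of the 5 complexes in the inner mitochondrial membrane that carry electrons to oxygen and make ATP. Members were the genes whose symbol begins with *Ndufa*, *Ndufb*, *Ndufc*, *Ndufs*, *Ndufv*, *Uqcr*, *Cox4* to *Cox8* or *Atp5*, together with *Sdha*, *Sdhb*, *Sdhc* and *Sdhd*, and 92 genes met this rule. Of these, 91 were among the 20310 genes of the table of differentiation stages and 92 among the 20495 genes of the table of fibroblasts. *Ndufs8*, a core subunit of complex I, was analysed in the fibroblasts only. The symbol rule also took in genes that are not chain subunits, namely the 7 *Ndufaf* genes, which encode assembly factors of complex I, and 2 genes of other roles, *Atp5s* and *Atp5sl*. *Ndufa4* and *Ndufa4l2* were counted with complex IV, where the NDUFA4 protein resides. In the stage table the members were thus 35 of complex I, 7 assembly factors, 4 of complex II, 8 of complex III, 20 of complex IV, 15 of complex V and the 2 others.

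The samples were of strain 129 mouse cells. A line of embryonic stem cells (ESCs) that carries a GFP reporter in *Brachyury* was differentiated in culture, and mesoderm (MES, GFP+ FLK1-), hemangioblasts (HB, GFP+ FLK1+), hematopoietic progenitors (HP, CD41+) and macrophages (MAC, CD11b+) were sorted, with 2 replicates for each of these 5 stages. In addition, mouse embryonic fibroblasts (MEFs) were left untreated (uFIB) or were given Scl and Lmo2 (SL), Scl, Fli1, Gata2 and Lmo2 (SFGL) or Fli1, Gata2 and Lmo2 (FGL), and 1 library was made of each at day 12 and at day 21. Scl is the protein of *Tal1*. The MEFs came from wild type mice or from mice with a doxycycline-inducible *Tal1* transgene (iTal1-2A-GFP), and the labels do not tie these sources to libraries. HE, the stage between HB and HP, was not analysed here.

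Levels are FPKM, fragments counted per length of transcript and per depth of library, which allows genes to be compared by length-corrected level. Unless said otherwise, values over stages follow the order ESC, MES, HB, HP and MAC, and values over fibroblasts the order uFIB, SL, SFGL and FGL. Each stage has 1 value per gene, in which the authors had already combined the replicates, so that neither an SD nor a test between stages is available, and differences carry no replicate check. Each MEF value is from a single library. "Rose" and "fell" below mean a 2-fold or larger difference on log2(FPKM + 1), with 1 FPKM or more in one of the conditions. This scale understates the change of low genes. Beside each count stands the percent of all genes with at least 1 FPKM that met the same limits in the same direction. The tables were normalized separately, and levels were compared only within a table.

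The sorted stages carried their markers, though neighbouring stages shared some of them. The summed FPKM of *Pou5f1*, *Nanog* and *Sox2* was 511 in ESC, 271 in MES and 0.125 in MAC. That of *T* and *Mixl1* was 189 in MES and 117 in HB, and that of *Kdr* and *Tal1* was 97.5 in HB and 78.8 in HP. Within the last sum *Kdr* fell from 77.6 FPKM in HB to 21.4 in HP, while *Tal1* rose from 19.9 to 57.3. *Itga2b*, *Gata1* and *Hbb-bh1* summed to 5282 in HP, of which *Hbb-bh1* made up 5182. The sum of 4 measured macrophage genes was 826 in MAC. The libraries labelled FGL matched their label only in part. At days 12 and 21 *Gata2* was at 21.9 and 35.1 FPKM in FGL, against 1.8 and 2.13 in uFIB. *Lmo2* was at 36.2 and 66.5, against 0.499 and 2.28. *Tal1*, which is not among the factors of FGL, was at 7.04 FPKM in FGL of day 12, against 0.0414 in uFIB of day 12 and 0.0705 in FGL of day 21. *Fli1* was at 3.35 FPKM in FGL of day 21, against 3.02 in uFIB of that day. Factors not given were also present in SL, with *Fli1* at 46.7 and 34.4 FPKM and *Gata2* at 68.8 and 62.6. Transgene and endogenous transcripts of these factors cannot be told apart here. FPKM holds no read totals. From the steps of values under 0.3 FPKM, the relative depth of the MEF libraries ranged from 0.584 to 1.55 times that of uFIB of day 12, and 15.3% to 19.3% of the low genes in the other 7 libraries lay at that step; for the stages depth is unknown. In these bulk samples fewer cells of a type and less RNA per cell cannot be told apart.

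Complex I (NADH dehydrogenase) and complex II (succinate dehydrogenase) feed electrons into the chain, complex III passes them to cytochrome c, complex IV (cytochrome c oxidase) hands them to oxygen, and complex V (ATP synthase) uses the resulting proton gradient. Most subunits are encoded in the nucleus and are present in nearly every cell type. Complex IV is the exception with respect to tissue: several of its subunits have a general isoform and a second isoform known from particular tissues, such as COX6B2 from testis, COX8B, COX7A1 and COX6A2 from heart and muscle, and COX4I2 from lung. Brown fat is also known for COX8B and COX7A1. *Ndufa4l2* is known as a gene induced when oxygen is low.

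Because isoforms of complex IV were the members that moved most in the fibroblasts, the stretch before the start of each of 3 such genes is shown beside that of *Cox6b1*, the general partner of *Cox6b2*. Each line gives the 250 bases before the RefSeq gene start in GRCm38.p6, read 5′ to 3′ on the gene's strand. Capitals mark matches on either strand to 4 motifs, GCGCATGC for NRF1, CCGGAAG for ETS factors such as GABP, AGATAA for GATA factors and CAGNTG for E-box factors. The GATA and E-box letters were chosen after values were seen, and no motif overlaps another in these stretches. The *Cox6b1* stretch is chr7:30626115-30626364, minus strand. That of *Cox6b2* is chr7:4753095-4753344, minus strand. The stretch of *Cox8b* is chr7:140900447-140900696, minus strand, and that of *Cox7a1* is chr7:30183921-30184170, plus strand.
Cox6b1: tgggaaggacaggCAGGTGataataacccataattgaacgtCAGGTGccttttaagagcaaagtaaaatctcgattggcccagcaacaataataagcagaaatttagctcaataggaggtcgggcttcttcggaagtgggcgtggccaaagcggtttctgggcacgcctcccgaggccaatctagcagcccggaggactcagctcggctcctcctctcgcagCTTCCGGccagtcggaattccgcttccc
Cox6b2: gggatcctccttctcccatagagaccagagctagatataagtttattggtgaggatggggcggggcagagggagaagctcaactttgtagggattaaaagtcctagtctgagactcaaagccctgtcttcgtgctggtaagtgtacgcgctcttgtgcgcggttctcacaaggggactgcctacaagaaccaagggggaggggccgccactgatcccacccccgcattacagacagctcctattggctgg
Cox8b: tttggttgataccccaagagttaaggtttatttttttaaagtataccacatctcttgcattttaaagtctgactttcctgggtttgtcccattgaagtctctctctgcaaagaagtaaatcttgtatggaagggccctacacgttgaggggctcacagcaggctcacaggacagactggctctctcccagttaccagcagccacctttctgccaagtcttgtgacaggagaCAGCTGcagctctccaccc
Cox7a1: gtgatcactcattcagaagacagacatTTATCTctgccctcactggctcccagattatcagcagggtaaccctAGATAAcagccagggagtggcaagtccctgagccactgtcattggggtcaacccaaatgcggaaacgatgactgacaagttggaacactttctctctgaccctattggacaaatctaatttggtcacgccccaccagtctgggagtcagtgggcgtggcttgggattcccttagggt
The stretch of *Cox6b1* held the ETS letters 28 bases and E-box letters 209 and 237 bases before the start, that of *Cox8b* held E-box letters 19 bases before it, and that of *Cox7a1* held GATA letters 177 and 223 bases before it. None of the 4 motifs was in the window of *Cox6b2*, which says only that these letters are not in these 250 bases.

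Over the members, RefSeq promoters were matched for 76 genes (3 of them by a synonym), with 82 windows. The NRF1 letters were in 9 of the 82 windows (11%), against 2.26% of all 32851 windows, and the ETS letters were in 13 (15.9%), against 6.91%. Both factors are known as activators of nuclear genes for mitochondria. The NRF1 letters were in windows of complex I (3), complex V (3), complex II (1), complex IV (1) and the assembly factors (1), and in none of the 5 windows of complex III. By contrast, the GATA letters were in 7.32% of the member windows and 9.99% of all windows, and the E-box letters in 37.8% and 44.8%. The median GC content was 56.8% in member windows and 52.4% in all windows.

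The members took up a nearly even part of the transcriptome along the pathway. Their FPKM values summed to 5601, 5146, 5912, 5530.3 and 11467 over the stages, which was 3.1%, 2.82%, 2.93%, 2.98% and 3% of all FPKM. MAC stood apart in the sum but not in the share, since the FPKM of all genes summed to 381686 in MAC and to between 180554 and 201844 in the other stages. Of the 91 members, 66 to 70 were at 10 FPKM or above in any 1 stage. Of 87 members with at least 1 FPKM in a stage, 67 (77%) had their highest value in MAC, where 46.8% of all such genes did. After all stages were brought to the same upper quartile, 32 were highest in MAC, 27 in ESC, 13 in HB, 8 in HP and 7 in MES. Over the first 4 stages, 82.8% of the 87 members with at least 1 FPKM in a stage stayed within 2-fold on log2(FPKM + 1), compared with 60.5% of all 11988 such genes, and the median range was 0.57 for members and 0.82 for all genes on that scale.

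**Figure D1:**
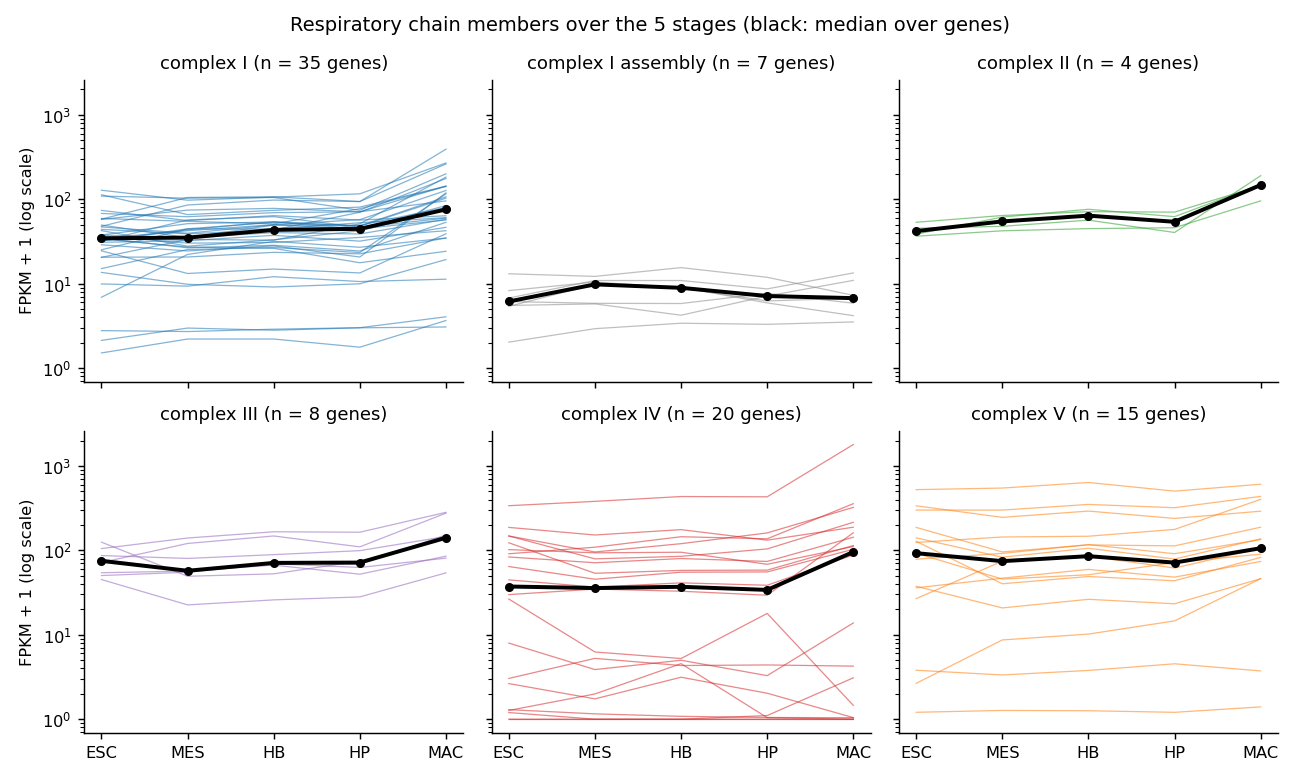
FPKM + 1 (log axis) of each member in the 5 stages, 1 panel per complex. Thin lines are genes and the black line is the median over genes. From ESC to HP the median of complex II goes from 40.9 to 62.9 FPKM at most and that of the assembly factors from 5.15 to 8.81, and in MAC that of complex II stands at 146 FPKM against 53.1 in HP, while the median of the assembly factors is 5.74 against 6.14.

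The 5 members with the highest value in any stage were *Cox4i1*, *Atp5b*, *Atp5a1*, *Atp5e* and *Ndufb7*. *Cox4i1*, the general isoform of subunit 4 of complex IV, was at 337, 379.6, 433, 429.6 and 1791 FPKM. *Atp5b*, the catalytic beta subunit of ATP synthase, was at 523, 546, 636, 502 and 606 FPKM, and *Atp5a1*, the alpha subunit, at 299, 299, 349, 319 and 435. On unscaled FPKM these genes of the catalytic head of complex V were thus high and even, whereas *Cox4i1* was about level in 4 stages and high in MAC. At the same upper quartile, *Atp5b* and *Atp5a1* were lower in MAC than in HP, at -0.47 and -0.29 on log2(FPKM + 1). *Cox4i1* was then at 1.32. *Atp5e*, a small subunit of the central stalk, was at 123, 143, 146, 176 and 401 FPKM, and *Ndufb7*, an accessory subunit of complex I, at 57.2, 104, 106, 93 and 391.

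From ESC to MES 3 of the 85 members with at least 1 FPKM rose and 6 fell, where 6.95% of all genes rose and 7.30% fell. The genes that rose were *Atp5l* (1.66 to 7.68 FPKM), *Ndufa5* (5.91 to 21.2) and *Atp5o* (25.8 to 73.5). *Atp5l* encodes a subunit of the membrane part of ATP synthase, *Atp5o* its stalk protein OSCP, and *Ndufa5* an accessory subunit of complex I. The genes that fell were *Cox6b2* (25.5 to 5.25 FPKM), *Atp5j* (127 to 39.2), *Uqcrq* (124 to 48.3), *Cox6c* (122 to 52.5), *Cox7a1* (6.97 to 2.87) and *Atp5d* (91.6 to 44.7). Genes of 1 complex therefore went both ways, with 2 of complex V up and 2 down. The median change was -0.07 over the members and 0 over all genes. For ESC the submitters' processing notes name Bowtie and HOMER, whereas for the other stages they name Cufflinks; ESC also held *Hbb-bh1*, an embryonic globin, at 29.9 FPKM against 0.268 in MES. The part of either in the changes from ESC was not tested. Of the fallen genes, *Cox6c* has a near-identical copy elsewhere for 45.9% of its transcript, *Uqcrq* for 18.5% and *Atp5j* for 10.8%, and of the risen genes *Atp5o* for 76.7% and *Atp5l* for 72.2%.

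From MES to HB only *Ndufa4l2* rose and no member fell, where 2.53% of all genes rose and 3.30% fell. *Ndufa4l2* was at 0.269, 0.99, 3.55, 0.0421 and 0 FPKM, so that HB held its highest stage value. From HB to HP 1 member rose and 1 fell, where 8.88% of all genes rose and 8.79% fell. The gene that rose was *Cox6b2* (4.23 to 16.9 FPKM), and the one that fell was *Ndufa4l2*. From MES to HB 29 of 35 genes of complex I, 8 of 8 of complex III and 14 of 15 of complex V were higher, none by 2-fold. Of all 10210 genes with at least 1 FPKM, 6888 were higher as well. The median changes of the members were 0.17 from MES to HB and -0.09 from HB to HP, and those of all genes 0.13 and -0.13. With the same upper quartile, the medians from MES to HB were 0.01 for the members and -0.01 for all genes.

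**Figure D2:**
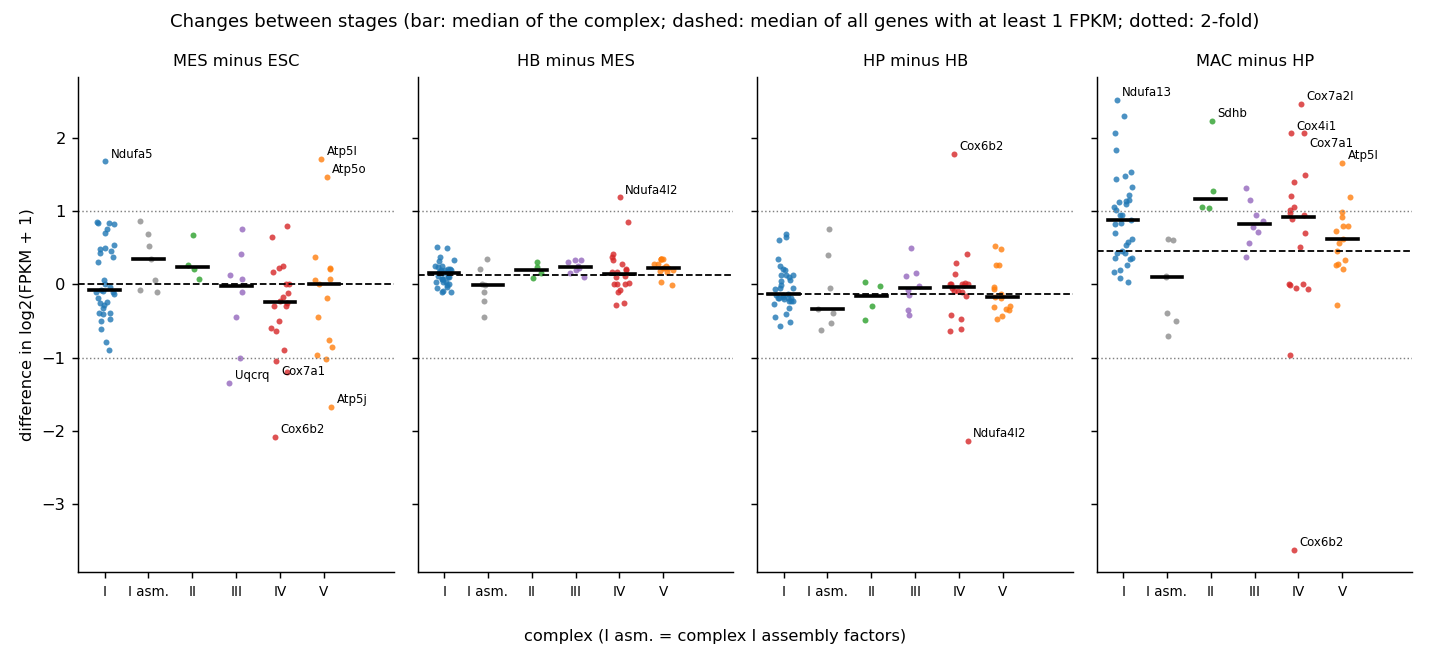
Differences in log2(FPKM + 1) between successive stages for each member, by complex. Bars are medians of the complex, dashed lines the median of all genes with at least 1 FPKM (0, 0.13, -0.13 and 0.45) and dotted lines the 2-fold limits; some called genes are named. The spread is narrow from MES to HP and wide from HP to MAC, where *Ndufa13* stands at 2.52 and *Cox6b2* at -3.62.

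From HP to MAC 31 of the 86 members with at least 1 FPKM rose (36.0%) and 1 fell, where 33.4% of all genes rose and 13.9% fell. The share that rose was thus near that of all genes. The median change was 0.78 over the members and 0.45 over all genes, which is a difference of 0.33. MAC had an upper quartile of 18 FPKM against 10.8 in HP, and when both were brought to 1 upper quartile the median of the members was 0.04 and that of all genes -0.18. On that scale 9 members rose and 4 fell, and of all genes 19.5% rose and 24.8% fell. Counts, medians and calls from HP to MAC are therefore given below unscaled and then scaled in this way.

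The 9 members that rose on both scales were *Ndufa13*, *Cox7a2l*, *Ndufa1*, *Sdhb*, *Cox7a1*, *Cox4i1*, *Ndufb7*, *Ndufv3* and *Cox6a2*. *Ndufa13*, an accessory subunit of complex I also known as GRIM-19 (chr8:69894181-69903518), was at 27.9, 23.4, 27, 19.7 and 118 FPKM. *Cox7a2l*, which is known to join complexes III and IV into supercomplexes (chr17:83501916-83514333), was at 28.9, 33.8, 31.8, 28.4 and 160.4 FPKM. Both were level over 4 stages and highest in MAC, at 2.52 and 2.46 above HP on log2(FPKM + 1), or 1.8 and 1.73 after scaling. *Sdhb*, the iron-sulfur subunit of complex II (chr4:140961270-140979192), was at 44.3, 46.8, 55.6, 39.4 and 189 FPKM, which was 2.23 above HP and 1.5 after scaling. In part of the transcript of *Ndufb7* (61.2%), *Ndufa1* (31.0%) and *Cox7a2l* (30.6%) the bases have a near-identical copy elsewhere in the genome, and in the other 6 none do.

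Complex II moved as a whole, since all 4 of its genes rose: *Sdha* from 69.4 to 144 FPKM, *Sdhb* as above, *Sdhc* from 45 to 94.7 and *Sdhd* from 61.2 to 149. After scaling only *Sdhb* met the limit, and *Sdha*, *Sdhc* and *Sdhd* were at 0.31, 0.33 and 0.53. In complex I all 35 genes were higher in MAC than in HP and 15 rose, with a range from 0.03 for *Ndufab1* to 2.52 for *Ndufa13*. After scaling this direction turned for 15 of the 35, *Ndufab1* (-0.44) and *Ndufv1* (-0.55) among them, 20 were higher in MAC and 4 rose. Among its core subunits, *Ndufv1*, which binds NADH, was at 55.7 FPKM in HP and 62.8 in MAC, whereas *Ndufs3* was at 12.4 and 38, which was 1.54 unscaled and 0.83 scaled. The transcripts of this complex thus differed between HP and MAC by unequal factors.

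Complex III had 2 genes that rose, *Uqcrh* (109 to 275 FPKM) and *Uqcr11* (67.7 to 151), and a median change of 0.82. After scaling these genes were at 0.59 and 0.42, no gene of the complex rose or fell, 5 were higher and 3 lower in MAC, and the median was 0.09. In complex IV 8 genes rose and 1 fell, and in complex V 2 rose, *Atp5l* (13.6 to 45.2 FPKM) and *Atp5e* (176 to 401), with a median of 0.62. After scaling 4 genes of complex IV rose and 2 fell, *Cox6b2* and *Cox4i2*, with a median of 0.19 in place of 0.92. Complex V then had no call, with *Atp5l* at 0.95, *Atp5e* at 0.45, 8 genes higher and 7 lower in MAC and a median of 0. As a part of all FPKM, the sum of complex V was 0.956% in HP and 0.689% in MAC, and that of complex IV was 0.7% and 0.944%. Without *Cox4i1*, which made up 33.0% of the complex IV sum in HP and 49.7% in MAC, complex IV was at 0.469% and 0.475%. The higher part of complex IV in MAC thus lay with 1 gene.

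None of the 7 assembly factors of complex I rose or fell from HP to MAC. Their median change was 0.1, below the 0.45 of all genes, and *Ndufaf2* (10.9 to 6.27 FPKM), *Ndufaf4* (4.92 to 3.18) and *Ndufaf7* (6.69 to 4.87) were lower in MAC. After scaling *Ndufaf2* and *Ndufaf4* met the limit, at -1.34 and -1.05. All 7 were then lower in MAC. The medians of the subunits and the assembly factors of complex I were 0.88 and 0.1 unscaled and 0.15 and -0.5 scaled, given here as a description.

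Of the isoform pairs, the general form led in each stage. *Cox4i2* was at most 0.491% of the *Cox4* sum, and was at 2.14 FPKM in HB and 0.0434 in MAC. *Cox8b* was listed at 0 in all 5 stages, *Cox8c* was at most 0.198 FPKM, and *Cox7b2* was at most 0.297 FPKM. *Cox6a2* was at 2.09 FPKM in MAC, 0.104 in HP and 0 in the first 3 stages. *Cox7a1* was at 6.97, 2.87, 3.99, 2.28 and 12.8 FPKM, and in MAC it was 10.4% of the *Cox7a* sum.

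*Cox6b2* (chr7:4751793-4753094 on GRCm38) had the widest course of the isoforms. Its level was 25.5, 5.25, 4.23, 16.9 and 0.458 FPKM, while *Cox6b1* was at 90.1, 108, 144, 136 and 356. The testis isoform was thus 22.1%, 4.65%, 2.85%, 11.1% and 0.129% of the *Cox6b* sum. ESC and HP were high and MAC was low, and the difference from HP to MAC was -3.62 on log2(FPKM + 1), or -3.93 after scaling. It was the member with the largest fall of this step. The stage table lists 2 start sites for *Cox6b2*, and both took part: the first was at 3.69, 1.8, 1.05, 5.24 and 0 FPKM, and the second at 21.8, 3.46, 3.18, 11.7 and 0.458.

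In the fibroblasts, factors were compared with the uFIB library of the same day, which the 3 comparisons of a day share. Few members rose or fell, and nearly all that did belonged to complex IV. SL at day 12 had 2 that rose and 1 that fell of 90 members with at least 1 FPKM, where 14.2% of all genes rose and 13.5% fell. At day 21 SL had 3 that rose and 3 that fell of 89, where 11.9% and 12.3% of all genes did. SFGL had 1 that rose and 2 that fell at day 12, where 14.7% and 17.0% of all genes did, and 3 that rose and 2 that fell at day 21, where 14.0% and 15.9% did. FGL had 1 that rose and none that fell at day 12, where 2.96% and 0.302% of all genes did, and 1 each at day 21, where 0.479% and 0.376% did. Over all 6 comparisons the called members were *Cox6b2*, *Cox8b*, *Cox7a1*, *Ndufa4l2*, *Cox4i2* and, in SL at day 21 only, *Sdhb*.

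**Figure D3:**
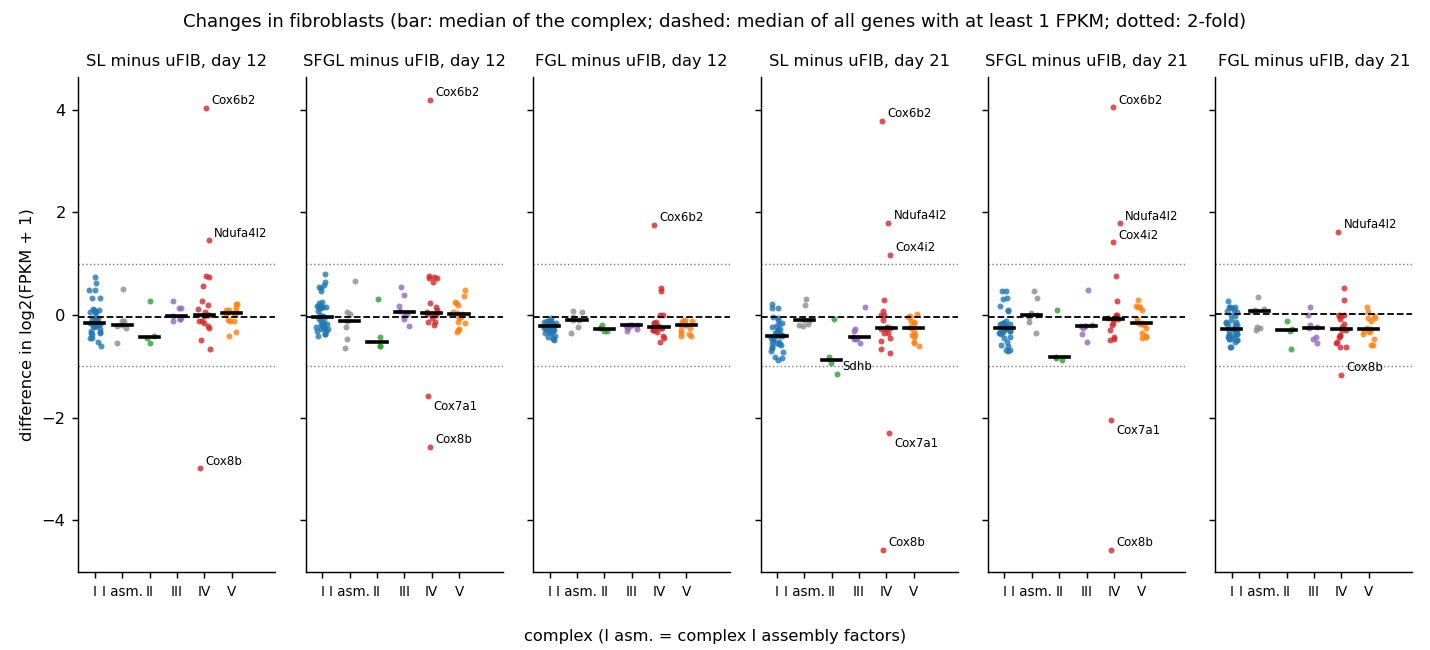
Differences in log2(FPKM + 1) between each treatment and uFIB of the same day for each member, by complex. Bars are medians of the complex, dashed lines the median of all genes with at least 1 FPKM and dotted lines the 2-fold limits; every called gene is named. *Cox6b2* lies at 4.04 and 3.79 in SL and *Cox8b* at -2.99 and -4.58, while the other complexes stay within the limits except for *Sdhb* at -1.15.

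*Cox6b2* rose in SL and SFGL on both days. Its level at day 12 was 4.53, 90.1, 100.3 and 17.7 FPKM, and at day 21 it was 10.2, 154, 184 and 12.7. The 4 libraries labelled SL or SFGL lay between 90.1 and 184 FPKM and the 4 labelled uFIB or FGL between 4.53 and 17.7. On log2(FPKM + 1) the differences were 4.04 and 3.79 for SL, 4.20 and 4.05 for SFGL and, at day 12, 1.76 for FGL, where *Tal1* was also present. Of all 12807 genes with at least 1 FPKM in a library, 1262 were 2-fold higher in SL on both days and 1375 in SFGL. How many genes part these libraries as *Cox6b2* does was not counted. The general isoform *Cox6b1* was at 272, 235, 247 and 229 FPKM at day 12 and at 338, 248, 252 and 253 at day 21. Thus *Cox6b2* went from 1.64% of the *Cox6b* sum in uFIB to 27.7% (SL) and 28.9% (SFGL) at day 12, and from 2.93% to 38.3% and 42.2% at day 21.

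The HP marker *Itga2b* (the gene of CD41) moved with *Cox6b2*: at day 12 it was at 1.1, 49.7, 108 and 8.83 FPKM. So did a neighbour, *Suv420h2*, which ends 4.28 kb from *Cox6b2* on chromosome 7 and encodes a histone H4 lysine methyltransferase. It was at 8.88, 38.3, 34.5 and 12.3 FPKM at day 12 and at 8.6, 45.3, 42.9 and 9.9 at day 21. In the stages *Suv420h2* was at 8.22, 6.91, 7.84, 10.2 and 7.2 FPKM. Its highest values were in HP and ESC, but unlike *Cox6b2* it neither rose nor fell in any stage step. *Suv420h2* was chosen after its values were seen, and the part of either gene in the result was not tested.

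*Cox8b* (chr7:140898941-140900446) moved the other way. At day 12 its level was 12.3, 0.674, 1.24 and 8.18 FPKM, and at day 21 it was 22.8 in uFIB, listed at 0 in SL and SFGL, and 9.57 in FGL. The libraries labelled SL or SFGL were lower than all those labelled uFIB or FGL. *Cox8b* fell in SL and SFGL on both days and in FGL at day 21, the last of these not against the averaged uFIB. Of all 12807 genes with at least 1 FPKM in a library, 1076 were 2-fold lower in SL on both days and 1545 in SFGL. How many genes part these libraries as *Cox8b* does was not counted. *Cox7a1* (chr7:30184170-30186030) was at 3.79, 2.43, 0.607 and 2.78 FPKM at day 12 and at 12.3, 1.7, 2.22 and 7.63 at day 21; it fell in SFGL on both days and in SL at day 21. Of the *Cox7a* sum it was 13.5% in uFIB and 13.1% in FGL at day 21, and 2.03% in SL and 2.28% in SFGL. Its general partner *Cox7a2* was at 59.3, 87.8, 100 and 49.2 FPKM at day 12 and at 78.5, 82.3, 95.1 and 50.5 at day 21.

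Fat cell genes were abundant in untreated fibroblasts and moved with *Cox8b* and *Cox7a1*. The 6 genes *Adipoq*, *Plin1*, *Fabp4*, *Cidec*, *Pparg* and *Retn* summed to 2464, 816, 310.4 and 1842 FPKM at day 12 and to 3925, 258, 187 and 3325 FPKM at day 21. The highest of the 6 alone was at 1976 FPKM in uFIB of day 12 and at 3283 in uFIB of day 21. All 6 fell in SL and SFGL on both days, and none rose or fell in FGL. The list is not confined to the fibroblasts: in MAC it summed to 142 FPKM. *Fabp4* and *Pparg* rose from HP to MAC, at 5.67 and 5.15 after scaling. Of 5 brown fat genes, *Ucp1*, *Cidea*, *Prdm16*, *Elovl3* and *Dio2*, the sum was 2.57 FPKM in uFIB at day 12 and 9.46 at day 21, and 0.814 to 1.17 in SL and SFGL. In FGL it was 1.86 and 4.67 FPKM, and *Cidea* fell there at day 21 (4.03 to 0.583), as *Cox8b* did. The 8 skeletal muscle genes *Myh3*, *Myog*, *Acta1*, *Ckm*, *Tnnt3*, *Mylpf*, *Actn3* and *Myod1* summed to 2.44 to 9.49 FPKM in the 8 libraries, with 3.61 and 3.16 in uFIB and 4.59 and 9.49 in SL. These sums were carried in SL by *Mylpf*, and at day 21 also by *Acta1*, while *Tnnt3* and *Actn3* were higher in uFIB than in SL on both days, at 0.532 to 1.44 FPKM. Fibroblast genes moved in the same direction: *Col1a1*, *Col1a2*, *Col3a1*, *Thy1* and *Pdgfrb* all fell in SL and SFGL on both days, with sums of 6371, 2178, 1798 and 5154 FPKM at day 12 and of 5059, 1104, 905 and 4913 at day 21. The fat and muscle lists were chosen after values were seen, and the part of these lists in the change of *Cox8b* and *Cox7a1* was not tested.

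**Figure D4:**
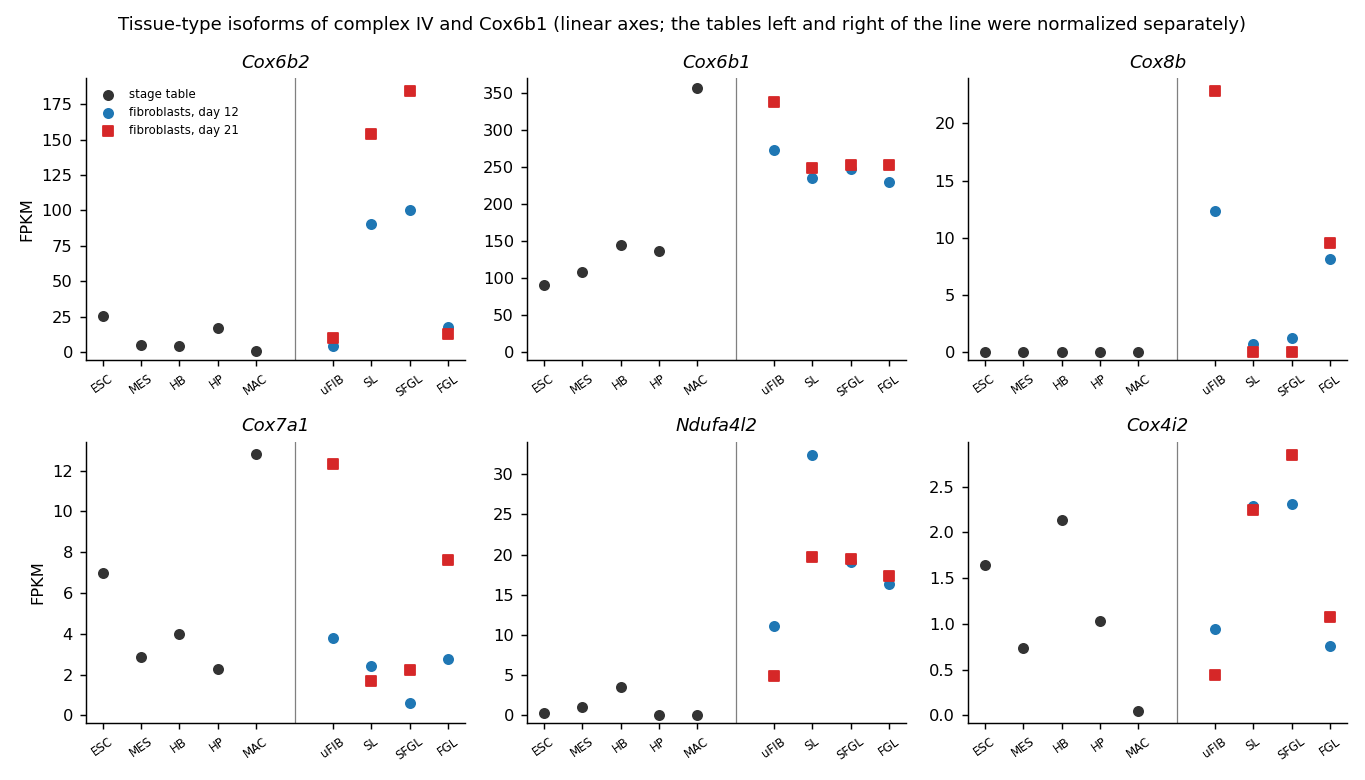
FPKM (linear axes from 0, scaled per panel) of 5 isoforms and of *Cox6b1* in the 5 stages (1 value each) and in the MEFs (1 library per point, circles day 12, squares day 21). *Cox6b2* is at 90.1 to 184 in SL and SFGL and at or under 17.7 in uFIB and FGL, whereas *Cox8b* is at or under 1.24 in SL and SFGL and at or above 8.18 in uFIB and FGL.

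*Ndufa4l2* (chr10:127514938-127522444) was at 11.1, 32.4, 19.1 and 16.3 FPKM at day 12, and at 4.94, 19.7, 19.5 and 17.3 at day 21. It was above uFIB in all 6 treated libraries and rose in 4, among them FGL at day 21 (1.62). *Cox6b2*, by contrast, did not rise in FGL at day 21. *Cox4i2* was low, at 0.946, 2.29, 2.31 and 0.753 FPKM at day 12 and at 0.441, 2.25, 2.85 and 1.07 at day 21, and it rose in SL and SFGL at day 21. The general forms *Ndufa4* and *Cox4i1* were at 172 to 289 FPKM and at 292 to 384 FPKM over the 8 libraries.

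Below the 2-fold limit, most members were somewhat lower in treated than in untreated cells at day 21. In SL 77 of 92 members were lower than in uFIB (median -0.33), in SFGL 68 (median -0.19) and in FGL 70 (median -0.26), while the medians of all genes were -0.04, -0.04 and 0.01. These comparisons share the uFIB library of day 21, which was itself high in members: 78 of the 92 were higher there than in uFIB of day 12, with a median of 0.20, where that of all genes was -0.05. The members made up 2.70% of all FPKM in uFIB of day 21 and 1.85% to 2.31% in the other 7 libraries. At day 12 the medians were -0.07 in SL, 0.02 in SFGL and -0.22 in FGL.

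FGL was lower than uFIB in most members on both days. *Ndufs8*, for example, was at 37.4, 39.9, 42.5 and 30.2 FPKM at day 12 and at 45, 33.5, 39.7 and 39.1 at day 21. At day 12 all 36 genes of complex I, all 4 of complex II, all 8 of complex III and all 15 of complex V were below uFIB, though none by 2-fold. On both days 67 of 92 members (72.8%) were lower in FGL, where 31.2% of the 12807 genes with at least 1 FPKM in a library were. For SL these values were 51 members (55.4%) and 44.3% of all genes, and for SFGL 40 members (43.5%) and 45.1%. With single libraries, differences of this size cannot be set against a replicate error.

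Complex II had the lowest medians in SL and SFGL at both days, between -0.42 and -0.88. *Sdhb* was at 68.8, 46.6, 44.9 and 55.3 FPKM at day 12, and at 101, 45.2, 56.4 and 84 at day 21. Its difference in SL at day 21 was -1.15, and -0.9 against the mean of both uFIB libraries. *Sdha*, the subunit that binds FAD, was at 90.6, 68, 67.1 and 76.3 FPKM and then at 120.4, 62.3, 65.2 and 96.3, and *Sdhc*, a membrane anchor, at 52.2, 38.2, 34 and 41.7 and then at 73.3, 41.2, 41.2 and 67.8. These 3 genes were lowest in SL and SFGL on both days, with FGL in between. The other anchor, *Sdhd*, did not follow them, at 55.3, 67.1, 69.5 and 48.4 FPKM at day 12 and 66.1, 62.9, 70.3 and 41.6 at day 21.

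Further genes of the pathway, from other lists, also rose or fell in the fibroblasts. Of 10 genes for nucleotide exchange and coupling, *Slc25a4*, the ADP/ATP carrier of heart and muscle, fell in SL and SFGL on both days (from 251 FPKM to 89.3 and 80.3 at day 12, and from 252 to 98 and 79 at day 21). *Ucp2*, an inner membrane carrier of blood and immune cells among others, was at 10.2, 121, 118 and 27.7 FPKM at day 12 and at 9.38, 103, 131 and 12.2 at day 21, and rose in all but the last of these comparisons. *Atpif1*, the inhibitor of the ATP synthase, was at 187, 356, 392 and 187 FPKM at day 12 and at 157, 321, 415 and 172 at day 21. It rose in SFGL on both days and in SL at day 21. None of the 3 genes belongs to the members.

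Of 14 measured assembly factors of complex IV, only *Cox17*, the copper chaperone, rose in the fibroblasts: SL and SFGL were at 92.9 and 117 FPKM at day 12, against 42.6 in uFIB, and at 113 and 141 at day 21, against 51.7. From HP to MAC 5 of the 14 rose, with *Surf1* first (8.16 to 42.4 FPKM) and the only one that also rose after scaling (1.54), and *Cox20* alone rose from HB to HP. Of the 13 enzymes of the TCA cycle, *Idh3b* alone rose from HP to MAC (37.9 to 116 FPKM, 0.86 after scaling) and none rose or fell in the other comparisons, with medians of -0.49 and -0.4 in SL and SFGL at day 21. The 5 measured of 8 electron carriers and complex III partners had no call in any comparison. In the stages *Cyct* (at most 0.535 FPKM) and *Lyrm7* (at most 0.252) were under 1 FPKM throughout, so that no call was possible. *Cycs* was near that limit there, at 0.486 to 1.33 FPKM, and *Cyct* was listed at 0 in all fibroblast libraries. Of the regulators, *Esrra* rose (5.58 to 20.8 FPKM) and *Tfam* (11.9 to 4.94) and *Pprc1* (10.3 to 3.36) fell from HP to MAC, all 3 also after scaling (1.04, -1.73 and -1.95), and *Ppargc1a* fell in SL and SFGL on both days from 1.59 and 1.65 FPKM in uFIB to 0.0562 to 0.24. *Ppargc1b* fell in SL at day 21 (2.9 to 0.781 FPKM). The 13 genes encoded in mitochondrial DNA were not analysed here.

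Some members were listed far lower in the stages than in the fibroblasts relative to other genes. These were mostly genes with near-identical stretches at other loci, called copies here. Ranks were taken from mean FPKM within each table, as percentiles of all genes. *Atp5g2* (chr15:102662867-102671047), 1 of 3 genes for the same mature subunit c of ATP synthase, was at percentile 38.6 in the stages, with 0.206 to 0.398 FPKM, and at 97.9 in the fibroblasts, with 93.7 to 183 FPKM. Of the bases of its transcript, 88.2% match another locus with at least 90% identity. In the same way *Ndufs5* went from percentile 48.6 to 97.3 (60.8% of bases with a copy), *Cox7c* from 58.1 to 98.5 (58.3%), *Ndufb4* from 52.9 to 97.4 (40.2%), *Ndufab1* from 51.5 to 93.3 (16.6%), *Atp5g1* from 56.4 to 94.6 (24.5%) and *Ndufa12* from 75.3 to 97.8 (44.8%). The share of *Atp5g1* is uncertain, since the searched transcript of 4715 bases was longer than the measured locus (chr11:96072792-96075694). Its matches lay in 1586 other genes, of which only 31 were pseudogenes. Of the 40 members with a copy over at least 5% of the transcript, 7 were at least 20 points higher in the fibroblasts, *Atp5g1* among them, compared with 2 of the 51 others, *Cox8b* and *Ndufa4l2*. Most members with copies did not shift so, and the median percentile in the stages was 96.2 in both sets. *Cox6a1*, with 93.7% of bases copied, was at percentile 99 in both tables, and *Ndufa11* (77.8%) was at 78.4 in the stages and 64.6 in the fibroblasts.

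**Figure D5:**
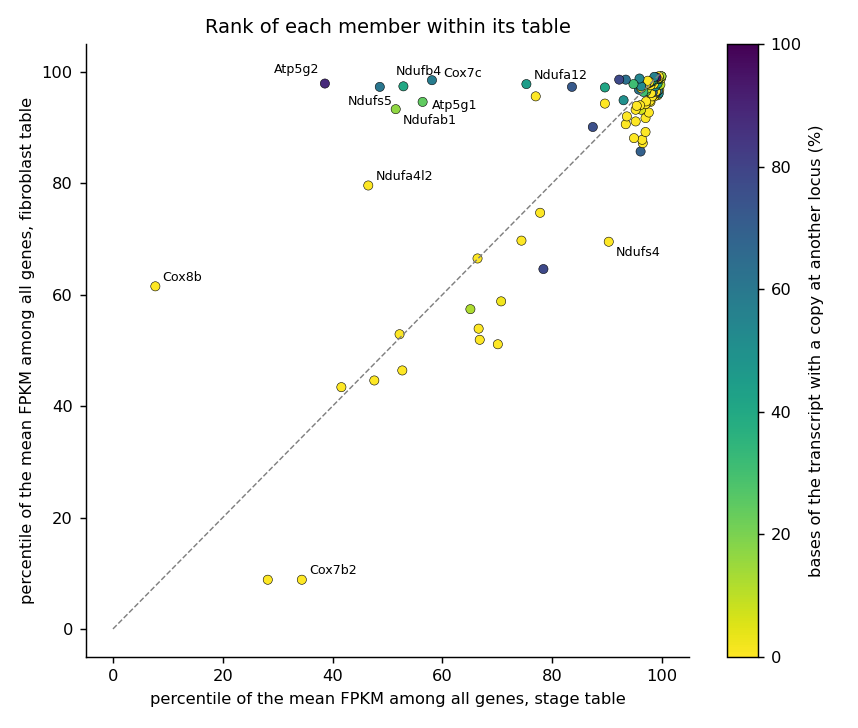
Percentile of each member's mean FPKM among all genes of the stage table (x axis) and of the fibroblast table (y axis), coloured by the percent of its transcript with a copy at another locus. Members at least 20 points from the dashed line of equality are named; *Atp5g2*, with 88.2% of bases copied, lies at 38.6 and 97.9.

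Isoform shares that rest on such genes depend on the table. *Atp5g3* was 98.5% to 99.1% of the 3 subunit c genes in the stages, but 28.4% to 53.2% in the fibroblasts, where *Atp5g2* was 31.2% to 50.7%. The stages were aligned with unique reads kept, and the labels name TopHat for the MEFs; the part of copied sequence in these levels was not tested. *Cox6b2*, *Cox8b*, *Cox7a1*, *Ndufa4l2* and *Cox4i2* have no such copy in their transcripts.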

How the data were processed

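RNA-seq of 18 samples was used, 10 of the stages and 8 of MEFs. The deposited values of both tables are FPKM. For the stages, the authors mapped colour-space reads of rRNA-depleted RNA to mm10 (GRCm38), dropped reads with several sites and duplicates, and ran Cufflinks with RefSeq genes, with replicates combined in 1 value per start site; for the MEFs the submitters' processing notes name TopHat and Cufflinks. Versions are not given in the sources used here. Read numbers are not held by FPKM, so no counting interval is given. There was 1 further value column, for HE, that was not used.

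Start sites were summed per gene (only *Cox6b2* has 2 among the members). Differences were taken on log2(FPKM + 1), and calls needed 2-fold and 1 FPKM in at least 1 of both conditions. No test was run, since no column gives a replicate. The members and lists were chosen with earlier results of these data known. Named were, per complex and comparison, the largest rise and fall, called members (the 5 largest where over 10), the isoform pairs, the 5 highest members, *Sdha* to *Sdhd* and called pathway genes (at most 3 a list and direction); not all of these are printed, and other genes named, such as *Ndufv1*, *Ndufaf7* and those with copies, were chosen after their values were seen. Groups are those of the labels. Copies were searched with BLAST 2.17.0 in GENCODE M21 transcripts (at least 90% identity over 50 bases), after values were seen. For each member the longest coding transcript with a RefSeq entry was searched, which need not be the one measured. Promoters are those of RefSeq (GRCm38.p6). The call rule was tested on simulated data with known changes. These were well past the 2-fold limit and in genes well above 1 FPKM, so that changes near either limit were not covered. Alternatives were other pseudocounts, fold limits and filters, upper-quartile scaling, the highest start site, the averaged uFIB libraries as reference, and members without copies. Python 3.11.15, NumPy 2.4.6, pandas 2.3.3 and matplotlib 3.10.9 were used.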

Additional observations from a re-analysis of the deposited data

Results flagged for a closer look

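Relative to uFIB of the same day, the median of the members in SFGL lay on either side of 0, at 0.02 at day 12 and at -0.19 at day 21 on log2(FPKM + 1). The direction relative to uFIB thus differed between the days. From day 12 to day 21 the median change of the members was -0.01 in SFGL itself and 0.2 in uFIB. Against the averaged uFIB libraries the median of SFGL had the same sign on both days, as given below. With 1 library per condition and day these differences were not tested. In SFGL *Cox6b2* rose and *Cox8b* and *Cox7a1* fell on both days.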

How the results depend on the processing

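No paired analysis was possible because the stage columns combine the replicates and each MEF condition has 1 library per day; for the same reason no replicate could be left out. No called gene changed direction under the alternatives run, with 231 values that stayed past the 2-fold limit and 25 that did not, 22 of them from HP to MAC with the same upper quartile and 3 at day 21 with the averaged uFIB as reference (*Cox4i2* and *Sdhb* in SL and *Cox8b* in FGL). Of 60 medians of all members 51 moved by less than 0.1, and of 160 counts 121 stayed within 1.5 times. Medians of single complexes moved in 43 cases and stayed in 237. With the averaged uFIB as reference 20 of them moved and 22 stayed, so the medians by complex in the fibroblasts depend on that reference. Of the isoform shares 3 moved and 37 stayed with the highest start site.

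With the same upper quartile, the median was 0.01 from MES to HB and 0.04 from HP to MAC, and from HP to MAC 9 members rose and 4 fell. With the averaged uFIB, the medians at day 12 were -0.17 in SL, -0.09 in SFGL, a change of sign, and -0.34 in FGL, and at day 21 -0.23, -0.09 and -0.14; 2 members fell in SL and 2 in FGL at day 12, 2 rose in SFGL at day 12, and 0 fell in FGL at day 21. With pseudocounts of 0.1 and 0.001, 5 and 6 members rose from ESC to MES, 2 rose with either from MES to HB, 2 fell from HB to HP with 0.001, 2 fell with either from HP to MAC and in SL at day 12, and 2 rose with either in SFGL at day 12 and in FGL at day 21. At a fold limit of 1.5, 14 rose and 17 fell from ESC to MES, 2 rose between MES and HB, 5 rose and 4 fell between HB and HP, 55 rose and 3 fell from HP to MAC, 6 rose and 3 fell in SL and 10 rose and 5 fell in SFGL at day 12, and 16, 10 and 6 fell in SL, SFGL and FGL at day 21. With at least 10 FPKM, 0 rose from MES to HB, 0 fell from HB to HP and 1 fell in SFGL at day 12. Without members that have copies, an alternative added after the data were seen, 1 rose and 3 fell from ESC to MES, and 18 rose from HP to MAC with a median of 0.62. Single libraries, combined replicates and unknown depth limit all values.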
